A study of Homo sapiens with 12 samples.

Results

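The cytosolic ribosome is built from ribosomal RNA and a set of small, mostly basic proteins, each encoded by its own nuclear gene and named RPS for the small subunit or RPL for the large subunit. Genes on the array were taken as members when a probe set named exactly 1 gene and its symbol was RPL or RPS with a number and at most 1 further letter, or RPLP0, RPLP1, RPLP2 or RPSA; S6 kinases and pseudogenes were left out. The rule found 61 genes among the 18417 genes measured, 22 of the small subunit and 39 of the large subunit. Where a gene had several probe sets of its own, the one with the highest mean over the 12 arrays stood for it.

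The cells were MCF10A, an immortalised, non-tumorigenic human mammary epithelial line, stably carrying MCF10A-HER2-FKBP-HA, that is, a full-length chimera of human HER2 with FKBP and HA tags. HER2 has no known ligand of its own, and AP1510 is a synthetic bivalent molecule that brings FKBP-tagged proteins together. TGF-alpha binds the EGF receptor, whereas HER3 and HER4 are the receptors for heregulin. There were 4 groups of 3 arrays each: untreated cells, and cells given AP1510, TGF-alpha or heregulin and harvested 48 h later. The labels do not say when the untreated dishes were harvested. In all dishes the growth medium with serum and EGF was replaced 24 h before the ligand by a medium that kept cholera toxin, hydrocortisone and insulin, so every group, the untreated one included, had insulin throughout. All 4 groups carried the chimera, and parental cells without it were not analysed here. Dishes were seeded in triplicate, so the p-values measure the spread between dishes of 1 line. The labels give no doses and no batches.

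Ribosomal proteins are made in strict proportion to each other, and most of their messenger RNAs begin with a C followed by a run of pyrimidines, the 5′ terminal oligopyrimidine (TOP) tract. The TOP tract puts translation of these messages under the control of mTORC1 and LARP1, so growth signals can change the output of ribosomal protein without changing the amount of message. Messenger RNA levels for this family are therefore usually steady, and MYC is among the factors known to raise them together with the nucleolar genes that assemble ribosomes. Arrays read the message level alone, and in bulk RNA fewer expressing cells and less RNA per cell cannot be told apart.

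The values are log2 intensities. Array medians lay between 5.33 and 5.44, and genome-wide correlations were 0.990 to 0.996 within groups and 0.972 to 0.995 between groups. When arrays were weighted by their spread about the group means, heregulin replicate 2 had the lowest weight, 0.322, and heregulin replicate 3 the highest, 4.62. The epithelial label was borne out by 6 of 6 measured epithelial markers of 9 listed, all above the median gene, from KRT14 at 7.80 to KRT5 at 12.1. PTPRC, which defines leukocytes, was at 2.98, VWF of endothelium at 4.11 and LUM of fibroblasts at 2.76, all below the median gene at 5.97. Those were the lowest markers of their lists. Above the median gene were 1 of 4 measured leukocyte markers, 1 of 3 endothelial markers and 2 of 5 fibroblast markers. The highest of each list were CD68 at 7.75, PECAM1 at 8.52 and DCN at 7.35, and PECAM1 was above KRT14.

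The sequence around the annotated start site was read for the 50 members that the RefSeq promoter table holds (GRCh38.p14). A C followed by at least 4 further C or T, starting within 5 bases of the annotated start of any listed transcript, was found in 43 of these 50 members, or 86%. The same was found in 4028 of the 14239 genes tested that had an entry, or 28.3%. A tract that began exactly at the annotated start was found in 36 members, or 72%, against 6.26% of the genes tested. Counted from the qualifying C nearest the annotated start, the tracts were 5 to 16 bases long, with a median of 8. RPL10L, RPL17, RPL27, RPS4X, RPS15, RPS27L and RPS29 had none by this definition. The members that passed the test after TGF-alpha are shown here because their starts can be set beside their values; each run holds the 20 bases before the annotated start and the first 15 bases of the transcript, 5′ to 3′, with the tract in capitals. RPL39L and RPL5, which also passed, have no entry in that table.
RPL35: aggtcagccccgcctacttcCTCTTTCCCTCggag (chr9:124861943-124861977, minus strand)
RPL37A: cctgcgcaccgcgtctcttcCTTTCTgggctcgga (chr2:216498824-216498858, plus strand)
RPS7: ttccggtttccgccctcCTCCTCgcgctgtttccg (chr2:3575240-3575274, plus strand)
RPL41: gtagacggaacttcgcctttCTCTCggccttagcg (chr12:56116613-56116647, plus strand)
RPL7A: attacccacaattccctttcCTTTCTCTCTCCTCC (chr9:133348198-133348232, plus strand)
RPS24: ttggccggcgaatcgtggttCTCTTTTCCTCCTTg (chr10:78033843-78033877, plus strand)
RPL38: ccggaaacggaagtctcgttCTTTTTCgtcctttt (chr17:74203658-74203692, plus strand)
RPL27: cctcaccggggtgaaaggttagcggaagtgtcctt (chr17:42998399-42998433, plus strand)
RPL17: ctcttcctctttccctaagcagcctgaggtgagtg (chr18:49492451-49492485, minus strand)
In 6 of the 9 windows the tract begins with the first base of the transcript. In RPS7 the nearest qualifying C lies 3 bases before that base, and the run of pyrimidines extends further upstream than the capitals. RPL27 begins with a purine and has no tract, and in RPL17 a pyrimidine run lies further upstream than the definition reaches. The median change after TGF-alpha was 0.13 over the 43 members with a tract, of which 7 passed, and 0.13 over the 7 without, of which 2 passed.

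Most ribosomal protein probe sets were among the brightest on the array and varied little. The median member had a mean log2 intensity of 11.5 against 5.97 for the median gene, 45 members lay above 10, 6 between 8 and 10 and 10 under 8. There were 48 members in the brightest 10% of genes. The brightest was RPL5 at 12.7, a large subunit protein that forms the 5S RNP with RPL11, and the dimmest was RPL39L at 4.84. These levels depend on each probe set's own sequence and do not rank the genes by abundance. The within-group SD had a median of 0.076 over the members and 0.129 over all genes, and ran from 0.042 for RPL4 to 0.227 for RPL26. Over all 12 arrays, 52 members stayed within a range of 0.5, and the median range was 0.329 against 0.544 for all genes. A test for any difference among the 4 groups (limma's moderated F test, Benjamini-Hochberg adjustment over 18417 genes) was passed by 9 of the 61 members, or 14.8%, where 28.5% of all genes passed.

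The mean over the 61 members differed little between arrays. It was 10.43, 10.47 and 10.42 in the untreated arrays, 10.50, 10.45 and 10.45 after AP1510, 10.55, 10.59 and 10.54 after TGF-alpha, and 10.53, 10.44 and 10.46 after heregulin. The 3 TGF-alpha arrays were the highest of the 12, and the untreated, AP1510 and heregulin arrays overlapped with each other. Group means were 10.44 ± 0.027 untreated, 10.47 ± 0.029 with AP1510, 10.56 ± 0.030 with TGF-alpha and 10.47 ± 0.047 with heregulin (SD, n = 3 arrays each). These means are given as a description, with no test. The epithelial markers also stood apart after TGF-alpha, with array means of 10.19 to 10.20 against 9.50 to 9.56 untreated, 9.75 to 9.85 after AP1510 and 9.59 to 9.79 after heregulin. Leukocyte markers were at 4.68 to 4.80 after TGF-alpha and 4.93 to 4.98 untreated, endothelial markers at 5.79 to 5.89 and 6.10 to 6.14, and fibroblast markers at 4.93 to 4.95 and 5.09 to 5.19. Shifts were not limited to TGF-alpha. Fibroblast markers after heregulin were at 5.42 to 5.53, above all other groups. Endothelial markers were below untreated after heregulin, at 5.75 to 5.97, and after AP1510, at 5.88 to 6.08. The part of these shifts in the members' values was not tested.

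**Figure D1:**
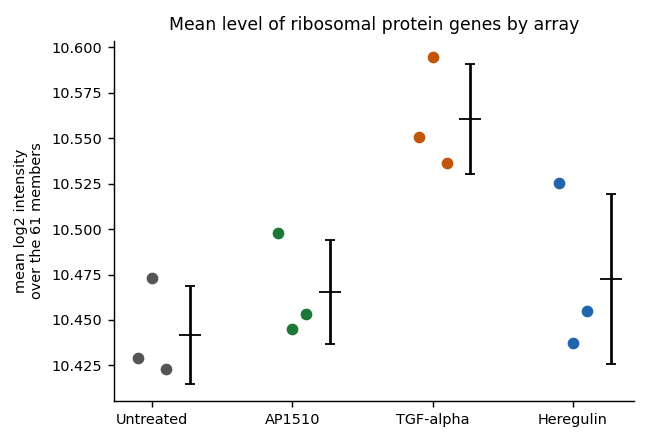
Mean log2 intensity over the 61 ribosomal protein genes on each array (points), by treatment, with the group mean and SD (bars, n = 3 arrays). The vertical axis does not start at 0 and spans less than 0.2 log2 units. The TGF-alpha arrays lie between 10.54 and 10.59, above all others, and the highest of the other 9 arrays is heregulin replicate 1 at 10.53.

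TGF-alpha was followed by a small rise spread over part of the family and by no fall that passed. Against untreated cells 11 of 61 members were higher (18.0%) and 0 lower (adjusted p under 0.05, limma with Benjamini-Hochberg adjustment over all genes), where 12.5% of all genes were higher and 13.4% lower. At an unadjusted p under 0.05, 16 members differed, of which 16 were higher. Of all 18417 genes, 6328 differed at that threshold, 3042 higher and 3286 lower. The median change over the members was 0.13 and over all genes -0.01, and 50 of 61 members had a positive change against 48.1% of all genes. In 28 members (45.9%) the 3 TGF-alpha arrays were all above the 3 untreated arrays and in 2 (3.28%) all below. The shares of all genes were 19.4% and 20.8%. No member passed a change of 1.5-fold, which 1926 of all genes did, and RPL39L lay just under it. The 11 that rose were RPL39L, RPL7A, RPL35, RPL37A, RPS7, RPL17, RPL41, RPL5, RPS24, RPL27 and RPL38, with changes of 0.58 down to 0.23. The other 50 ranged from -0.17 for RPS27 to 0.26 for RPL10A. The count of 11 fell to 5 without untreated replicate 3, to 7 without untreated replicate 2, TGF-alpha replicate 2 or TGF-alpha replicate 3, and was 20, 19 higher and 1 lower, when limma's trend of spread on level was used. RPL39L, RPL37A, RPS7 and RPL17 passed in each of the 12 refits that left out 1 array. Their mean levels were 4.84, 7.21, 8.80 and 8.13, below the median member at 11.5. RPL5 and RPL41, which also rose, were at 12.7 and 12.1. Whether the size of a change depends on level was not tested.

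**Figure D2:**
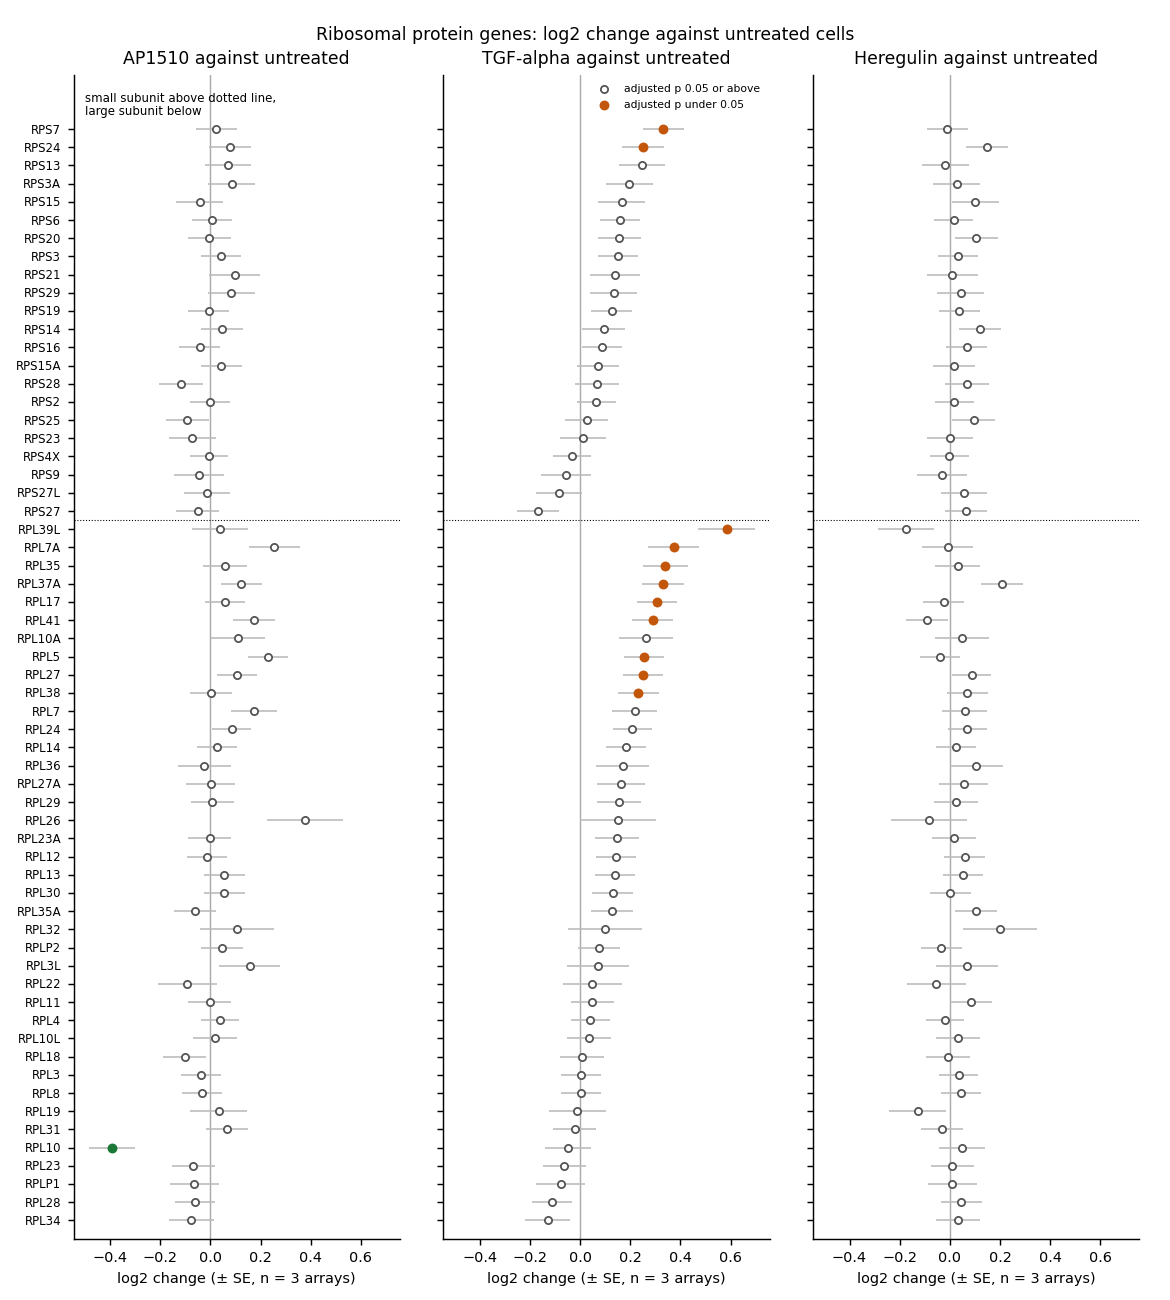
Log2 change of each of the 61 members against untreated cells after AP1510, TGF-alpha and heregulin (point, with the standard error of the fit, n = 3 arrays a group), small subunit above the dotted line and large subunit below. Filled points passed an adjusted p under 0.05: 1 fell after AP1510 (RPL10), 11 rose after TGF-alpha and 0 passed after heregulin.

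Among small subunit proteins, 2 of 22 rose after TGF-alpha, RPS7 and RPS24, and the median change was 0.11. This share of 9.09% was below the 12.5% of all genes that were higher. RPS7, a small subunit protein needed for processing of its ribosomal RNA, read 8.69, 8.75 and 8.71 in untreated cells and 8.77, 8.77 and 8.68 after AP1510. It read 9.04, 9.10 and 9.0 after TGF-alpha and 8.77, 8.59 and 8.76 after heregulin, so the TGF-alpha arrays were above all the others. The change against untreated cells was 0.33 ± 0.08 (SE, 1.26-fold, limma adjusted p = 0.0057). RPS24, which is mutated in some patients with Diamond-Blackfan anaemia, read 9.35, 9.44 and 9.33 untreated and 9.58, 9.59 and 9.71 after TGF-alpha (0.25 ± 0.08, adjusted p = 0.038). Its AP1510 arrays, at 9.47, 9.56 and 9.33, and heregulin arrays, at 9.52, 9.51 and 9.54, lay below the lowest TGF-alpha array. The RPS24 call was lost in 6 of the 12 refits without 1 array, those without untreated replicates 1 or 3, any TGF-alpha array or heregulin replicate 3. It was also lost with a second quantile normalization and with a common median over the brightest genes. RPS6, the small subunit protein that S6 kinases phosphorylate, read 11.95, 11.98 and 11.98 untreated and 12.10, 12.18 and 12.11 after TGF-alpha. These arrays did not overlap, but the change of 0.16 ± 0.08 did not pass (adjusted p = 0.17). RPS4X, the X-linked member of its family, stayed between 12.49 and 12.65 on all 12 arrays.

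Among large subunit proteins, 9 of 39 rose after TGF-alpha (23.1%), and the median change was 0.14. RPL7A, whose gene carries several small nucleolar RNAs in its introns, read 10.69, 10.57 and 10.73 untreated, 11.10, 10.77 and 10.89 after AP1510, 11.10, 11.02 and 11.00 after TGF-alpha, and 10.74, 10.49 and 10.74 after heregulin. Its TGF-alpha arrays were above the untreated and heregulin arrays but overlapped with the AP1510 arrays. The change against untreated cells was 0.37 ± 0.10 (1.30-fold, adjusted p = 0.011), and that after AP1510 was 0.26 ± 0.10 (adjusted p = 0.32). RPL35, which lies at the exit of the peptide tunnel, read 10.60, 10.69 and 10.49 untreated, 10.74, 10.63 and 10.58 after AP1510, 10.86, 10.97 and 10.96 after TGF-alpha, and 10.74, 10.53 and 10.60 after heregulin. Here the TGF-alpha arrays were above all 9 others (0.34 ± 0.09, 1.27-fold, adjusted p = 0.009). The RPL7A call was lost without untreated replicate 2 and the RPL35 call without untreated replicate 3, each with an adjusted p of 0.051.

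RPL37A and RPL17 are singled out after their values were seen, as the other large subunit proteins apart from RPL39L that passed in every refit. RPL37A, a zinc-binding protein, read 7.12, 7.01 and 7.0 untreated and 7.37, 7.29 and 7.45 after TGF-alpha (0.33 ± 0.08, adjusted p = 0.0066). It was also the only member with an unadjusted p under 0.05 after heregulin, at 7.33, 7.19 and 7.24 (0.21 ± 0.08, adjusted p = 0.16). RPL17, another protein at the tunnel exit, read 8.05, 8.04 and 8.04 untreated and 8.38, 8.31 and 8.36 after TGF-alpha, with no overlap (0.31 ± 0.08, adjusted p = 0.0092). RPL41, the smallest ribosomal protein, read 11.95, 12.01 and 11.94 untreated, 12.10, 12.26 and 12.06 after AP1510, 12.32, 12.22 and 12.22 after TGF-alpha, and 11.94, 11.83 and 11.86 after heregulin. Its rise after TGF-alpha was 0.29 ± 0.08 (adjusted p = 0.016), and every heregulin array was below the untreated ones (-0.09 ± 0.08, adjusted p = 0.61). The remaining 2 that rose were RPL27 (0.25 ± 0.08, adjusted p = 0.028) and RPL38 (0.23 ± 0.08, adjusted p = 0.049). RPL27 lost its call in 5 of the 12 refits, those without any untreated array or TGF-alpha replicates 2 or 3. RPL38 lost it in 10, all but those without AP1510 replicate 2 or heregulin replicate 2, and RPL41 in 3, those without untreated replicates 1 or 3 or TGF-alpha replicate 1. The RPL38 call was also lost with a common median over the brightest genes (adjusted p = 0.084), and that of RPL41 when probe sets were averaged or those naming several genes were allowed.

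RPL5 and RPL11 bind the 5S ribosomal RNA together and, when free, inhibit MDM2. RPL5 read 12.71, 12.59 and 12.60 untreated, 12.92, 12.85 and 12.83 after AP1510, 12.82, 12.89 and 12.96 after TGF-alpha, and 12.64, 12.59 and 12.56 after heregulin. Its AP1510 and TGF-alpha arrays lay above those of the other groups, but only the TGF-alpha change passed (0.25 ± 0.08, adjusted p = 0.026, against 0.23 ± 0.08, adjusted p = 0.23, for AP1510). The TGF-alpha call was lost without untreated replicates 2 or 3 or TGF-alpha replicates 2 or 3, and with a second quantile normalization. RPL11 lay between 11.06 and 11.31 on all arrays, and its change after TGF-alpha was 0.05 ± 0.09 (adjusted p = 0.76). RPLP1 and RPLP2 form the stalk that recruits elongation factors. RPLP1 changed by -0.08 ± 0.10 (adjusted p = 0.66) and RPLP2 by 0.08 ± 0.08 (adjusted p = 0.6) after TGF-alpha. RPLP0, the base of the stalk, was not analysed here. RPL3, which reaches towards the peptidyl transferase centre, changed by 0.00 ± 0.08 (adjusted p = 0.99).

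AP1510 was followed by a fall in 1 member and a rise in 0 of 61. The background was low, with 0.771% of all genes higher and 0.7% lower, and the median change over members was 0.02. In 8 members (13.1%) the 3 AP1510 arrays were all above the untreated ones and in 2 (3.28%) all below, against 7.36% and 9.93% of all genes. The member that fell was RPL10, which joins the large subunit late in its maturation. RPL10 read 11.66, 11.60 and 11.64 untreated and 11.24, 11.11 and 11.37 after AP1510, against 11.56, 11.70 and 11.50 after TGF-alpha and 11.76, 11.70 and 11.58 after heregulin. The 3 AP1510 arrays were below all 9 others. The change was -0.39 ± 0.09 (1.31-fold lower, adjusted p = 0.044), and the same gene was higher with TGF-alpha than with AP1510 by 0.34 ± 0.09 (adjusted p = 0.012) and with heregulin than with AP1510 by 0.44 ± 0.09 (adjusted p = 0.0068). These 3 comparisons share the AP1510 arrays. The fall against untreated cells was lost in 9 of the 12 refits without 1 array, those without any untreated or TGF-alpha array, AP1510 replicates 1 or 2 or heregulin replicate 3. The 4 probe sets that name RPL10 with other genes changed by -0.12 to -0.24 after AP1510, with adjusted p over all probe sets of 0.32 to 0.74. The gain with TGF-alpha over AP1510 was lost without AP1510 replicate 2 or TGF-alpha replicate 2, and both gains were lost when probe sets naming several genes were allowed. RPL26, RPL5 and RPL7A had the next lowest p after AP1510, with changes of 0.38, 0.23 and 0.26 and adjusted p of 0.32, 0.23 and 0.32. RPL26 varied most between arrays of 1 group, reading 9.77, 9.03 and 9.59 after heregulin.

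After heregulin 0 of 61 members passed against untreated cells, where 3.45% of all genes were higher and 5.06% lower. The unadjusted p was under 0.05 in 1 member, RPL37A, and in 3734 of all 18417 genes. The changes of the members ran from -0.17 for RPL39L to 0.21 for RPL37A, with a median of 0.03. In 4 members (6.56%) the heregulin arrays were all above the untreated ones and in 1 (1.64%) all below, against 10.5% and 13.3% of all genes. Against AP1510, heregulin was higher in 1 member (1.64%), RPL10, and lower in 0, against 3.27% and 3.95% of all genes. The arrays did not overlap in 8 members with heregulin above (13.1%) and 4 with it below (6.56%), against 11.3% and 11.4%. The ligands were also compared with each other directly. Heregulin cells were lower than TGF-alpha cells in 7 members (11.5%) and higher in 0, against 11.8% and 9.88% of all genes, with a median of -0.09. The share that was lower was close to that of all genes. In 15 members (24.6%) the heregulin arrays were all below the TGF-alpha arrays and in 3 (4.92%) all above, against 17.5% and 16.9%. The 7 were RPL39L (-0.76 ± 0.11, adjusted p = 0.0001), RPL7A (-0.38 ± 0.10, adjusted p = 0.012), RPL41 (-0.38 ± 0.08, adjusted p = 0.003), RPS7, RPL17, RPL35 and RPL5. RPL35 lost this call without TGF-alpha or heregulin replicates 2 or 3, RPL5 without TGF-alpha or heregulin replicate 3, and RPL7A without heregulin replicate 2. RPL17 (adjusted p = 0.16) and RPL41 (0.071) lost it when probe sets naming several genes were allowed, and RPL5 with a second quantile normalization or averaged probe sets. With array weights, which follow heregulin replicate 3 most, the count was 15, 2 higher and 13 lower. TGF-alpha was higher than AP1510 in 5 members (8.20%) and lower in 0, against 11.2% and 10.4% of all genes, with a median of 0.11. In 22 members (36.1%) the TGF-alpha arrays were all above the AP1510 arrays and in 3 (4.92%) all below, against 18.8% and 17.7% of all genes. The 5 were RPL39L, RPL10, RPS7, RPL35 and RPL17, and the count fell to 1 without TGF-alpha replicate 2, to 2 without AP1510 replicates 2 or 3, and to 3 without TGF-alpha replicate 3. RPL17 lost this call when probe sets naming several genes were allowed and when only the arrays of these groups were fitted. Comparisons that share a group of arrays are not independent of each other.

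**Figure D3:**
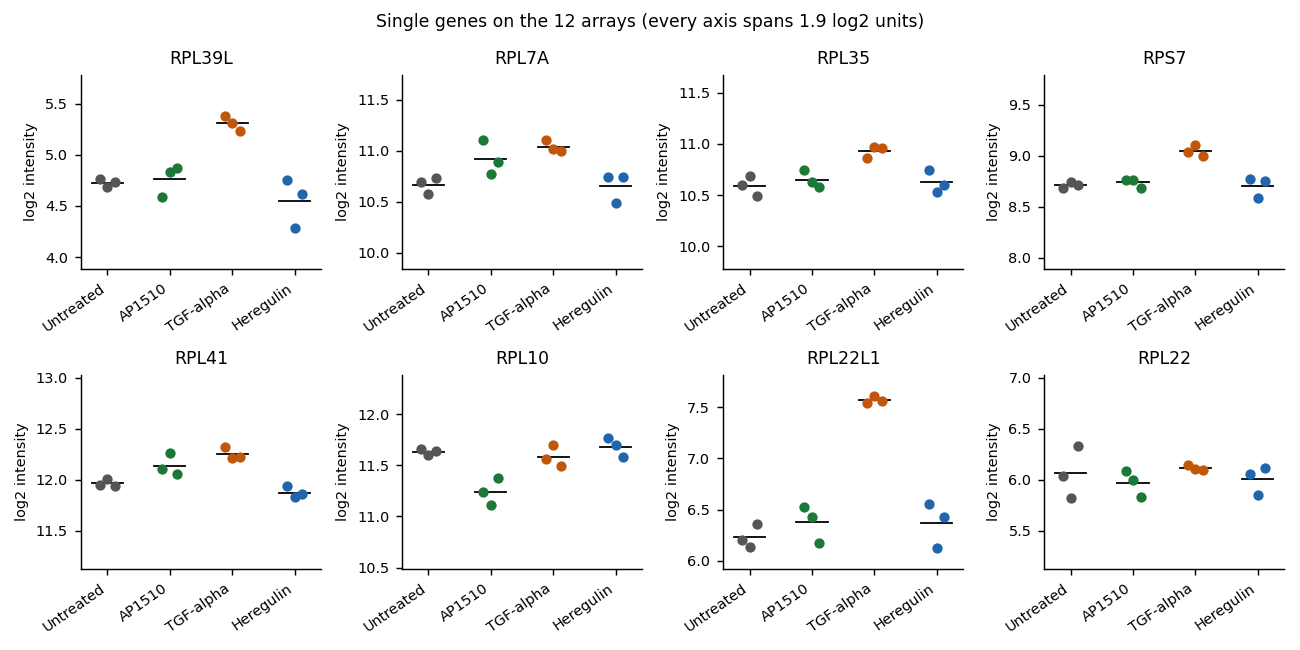
Log2 intensity on each of the 12 arrays for RPL39L, RPL7A, RPL35, RPS7, RPL41 and RPL10, and for RPL22L1 beside RPL22 (points, 3 arrays a treatment; the line is the group mean; each axis spans the same number of log2 units). TGF-alpha arrays lie above all others in RPL39L, RPL35, RPS7 and RPL22L1, and AP1510 arrays lie below all others in RPL10.

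Several ribosomal proteins have a second gene that encodes a near copy. RPL39L, RPL3L, RPL10L and RPS27L carry symbols inside the rule, and 1 of the 4 passed. RPL39L, whose product replaces RPL39 at the peptide exit tunnel and is best known in testis, read 4.76, 4.69 and 4.73 untreated and 4.59, 4.83 and 4.87 after AP1510. It read 5.38, 5.31 and 5.24 after TGF-alpha and 4.75, 4.29 and 4.62 after heregulin. The TGF-alpha arrays were above all others, and the change of 0.58 ± 0.11 (just under 1.5-fold, adjusted p = 0.00086) was the largest of any member, on a probe set dimmer than the median gene. RPL39 itself was read on 2 probe sets that also name a pseudogene and another gene, with changes of 0.22 and 0.23 (adjusted p = 0.099 and 0.089 over all probe sets). RPL3L, the striated muscle relative of RPL3, changed by 0.07 ± 0.12 (adjusted p = 0.76) and RPL10L, the testis relative of RPL10, by 0.04 ± 0.09 (adjusted p = 0.84). RPS27L, a p53 target, changed by -0.08 ± 0.09 (adjusted p = 0.59) and RPS27 by -0.17 ± 0.08 (adjusted p = 0.18), both with the TGF-alpha arrays below the untreated ones.

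A second set of copies lies outside the rule by symbol, namely RPL22L1, RPL26L1, RPL7L1, RPL36AL and the Y-linked copies of RPS4X. Of these 6, 3 rose after TGF-alpha (50%, where 12.5% of all genes were higher). RPL22L1 moved furthest of all ribosomal protein relatives measured. It read 6.20, 6.13 and 6.36 untreated, 6.53, 6.43 and 6.17 after AP1510, 7.55, 7.61 and 7.56 after TGF-alpha, and 6.56, 6.12 and 6.42 after heregulin. The TGF-alpha arrays stood well apart and the other 9 overlapped. The change was 1.34 ± 0.12 (2.54-fold, adjusted p = 2.6e-07), and heregulin cells were lower than TGF-alpha cells by 1.21 ± 0.12 (adjusted p = 1.2e-06). RPL22, its close relative, read 6.04, 5.82 and 6.33 untreated and 6.14, 6.11 and 6.09 after TGF-alpha, a change of 0.05 ± 0.12 (adjusted p = 0.84). RPL7L1, which acts in assembly of the large subunit, rose by 0.50 ± 0.08 (adjusted p = 0.00021), beside 0.22 ± 0.09 for RPL7 (adjusted p = 0.095). RPL26L1 rose by 0.35 ± 0.08 (adjusted p = 0.0024), beside 0.15 ± 0.15 for RPL26 (adjusted p = 0.56). RPL36AL changed by 0.28 ± 0.11 (adjusted p = 0.064), and neither it nor the Y-linked copies passed. The difference in response between the genes of a pair was not tested. FAU, which encodes RPS30 fused to a ubiquitin-like protein, was higher with TGF-alpha than with AP1510 by 0.51 ± 0.12 (adjusted p = 0.0057) and than untreated by 0.32 ± 0.12 (adjusted p = 0.065).

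The start sites of the pairs are shown to set each copy beside its relative, again with the tract in capitals, together with RPS6 and RPL10. RPL7 and RPL39L have no entry. For RPL10 and RPL26L1, which have several listed starts, a start with a tract was preferred where there was one.
RPL22: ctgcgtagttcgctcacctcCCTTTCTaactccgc (chr1:6199581-6199615, minus strand)
RPL22L1: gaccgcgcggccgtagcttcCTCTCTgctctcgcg (chr3:170870181-170870215, minus strand)
RPL26: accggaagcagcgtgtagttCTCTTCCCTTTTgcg (chr17:8383179-8383213, minus strand)
RPL26L1: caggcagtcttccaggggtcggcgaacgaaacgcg (chr5:172958709-172958743, plus strand)
RPL10: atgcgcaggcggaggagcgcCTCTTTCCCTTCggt (chrX:154398357-154398391, plus strand)
RPL10L: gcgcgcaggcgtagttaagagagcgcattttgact (chr14:46651767-46651801, minus strand)
RPS27: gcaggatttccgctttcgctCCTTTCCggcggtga (chr1:153990742-153990776, plus strand)
RPS27L: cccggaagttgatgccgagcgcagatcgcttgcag (chr15:63157463-63157497, minus strand)
RPL7L1: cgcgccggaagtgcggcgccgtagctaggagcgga (chr6:42879596-42879630, plus strand)
RPS6: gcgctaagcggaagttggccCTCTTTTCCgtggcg (chr9:19380222-19380256, minus strand)
RPL22 and RPL22L1 both begin with a tract, of 7 and 6 bases. RPL26, RPL10 and RPS27 begin with one and RPL26L1, RPL10L and RPS27L do not. Among the copies shown, the 3 that rose after TGF-alpha include 1 with a tract, RPL22L1, and 2 without, RPL26L1 and RPL7L1.

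Genes that assemble ribosomes rose widely after TGF-alpha. Of 44 measured assembly factors and polymerase I genes, 38 rose (86.4%, where 12.5% of all genes were higher) and 0 fell, with a median of 0.60 beside 0.13 for the ribosomal proteins. The difference between the lists was not tested. NOLC1, a nucleolar chaperone, rose by 1.23 (adjusted p = 1.9e-07), the helicase DDX21 by 1.13 (7.7e-07) and RRP1B by 1.11 (4.5e-07). After heregulin 15 of the 44 rose (34.1%, where 3.45% of all genes were higher) and 0 fell, with a median of 0.28, while 0 ribosomal proteins passed. That count of 15 fell to 7 without untreated replicate 3, heregulin replicate 1 or heregulin replicate 3, fell to 8 without untreated replicate 2, and was 28 with array weights. After AP1510 0 of the 44 passed, by limma, and 3 had an unadjusted p under 0.05, as had 2038 of all 18417 genes. A list of chaperones, most of them tied to particular ribosomal proteins, had 5 of 9 higher after TGF-alpha (55.6%) and 0 lower, with a median of 0.25. It includes NACA, which is not tied to a particular one. LTV1 is also among the 44 assembly genes, so its rise counts in both lists. PDCD2L, which binds RPS2, rose by 0.84 (adjusted p = 6.5e-05), BCCIP, which binds RPL23, by 0.57 (0.0017) and LTV1, which holds RPS3, by 0.54 (0.014). The count of 5 fell to 3 without untreated replicate 3 or TGF-alpha replicates 2 or 3. RPS2, RPL23 and RPS3 themselves did not pass. The ribosomal proteins of the mitochondrial ribosome, which share the name but are separate genes, had 37 of 73 higher and 1 lower after TGF-alpha, with a median of 0.29. MRPL3 rose by 0.71 (adjusted p = 1.3e-05), MRPL39 by 0.66 (0.00078) and MRPL21 by 0.64 (7.3e-05), and the 1 that fell was MRPS14 (-0.38, 0.007).

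Translation factors were mixed. Of all genes 12.5% were higher and 13.4% lower after TGF-alpha. Of 35 initiation factors 12 were higher (34.3%) and 1 lower (2.86%), with a median of 0.14. EIF2B3 and EIF2B2, subunits of the exchange factor for eIF2, rose by 0.73 (adjusted p = 0.00019) and 0.65 (0.00011) and EIF1AX by 0.58 (0.0025), and the 1 that fell was EIF4A2 (-0.34, 0.012). Of 11 elongation and termination factors 3 rose (27.3%) and 0 fell, with a median of 0.00. Those that rose were ABCE1, which recycles ribosomes, by 0.91 (0.00029), GSPT1 by 0.65 (2.6e-05) and ETF1 by 0.32 (0.012). Of 21 other genes known for TOP messages, 4 were higher (19.0%) and 1 lower (4.76%), with a median of 0.05. VIM rose by 1.45 (1.8e-07), NPM1 by 0.48 (0.00017) and HNRNPA1 by 0.44 (0.032), and TPT1 fell by 0.30 (0.011). The count of 5 fell to 3 without TGF-alpha replicate 2 or 3. The classic TOP messages for elongation factors changed by -0.01 for EEF1A1 (adjusted p = 0.94) and -0.05 for EEF2 (0.73). The TOP list shares genes with the others: EEF1A1 and EEF2 are also in the elongation list, NPM1 in the assembly list and NACA in the chaperone list. It shares some initiation factors as well. In the S6 kinase and mTORC1 list of 17 genes, 3 rose (17.6%) and 3 fell (17.6%). That count of 6 was 10 with dim genes left out or with array weights. EIF4EBP1, a repressor of cap-dependent translation that mTORC1 inactivates, rose by 2.23 (4.68-fold, 1.4e-09), RPS6KA2, an RSK kinase, by 1.73 (3.3e-09), and PDCD4, an inhibitor of eIF4A degraded after S6 kinase acts on it, fell by 0.73 (7.2e-05). RPS6KB1, the main S6 kinase gene, changed by -0.08 (0.68) and MTOR by 0.14 (0.26). All these p-values are limma's, adjusted over all genes.

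**Figure D4:**
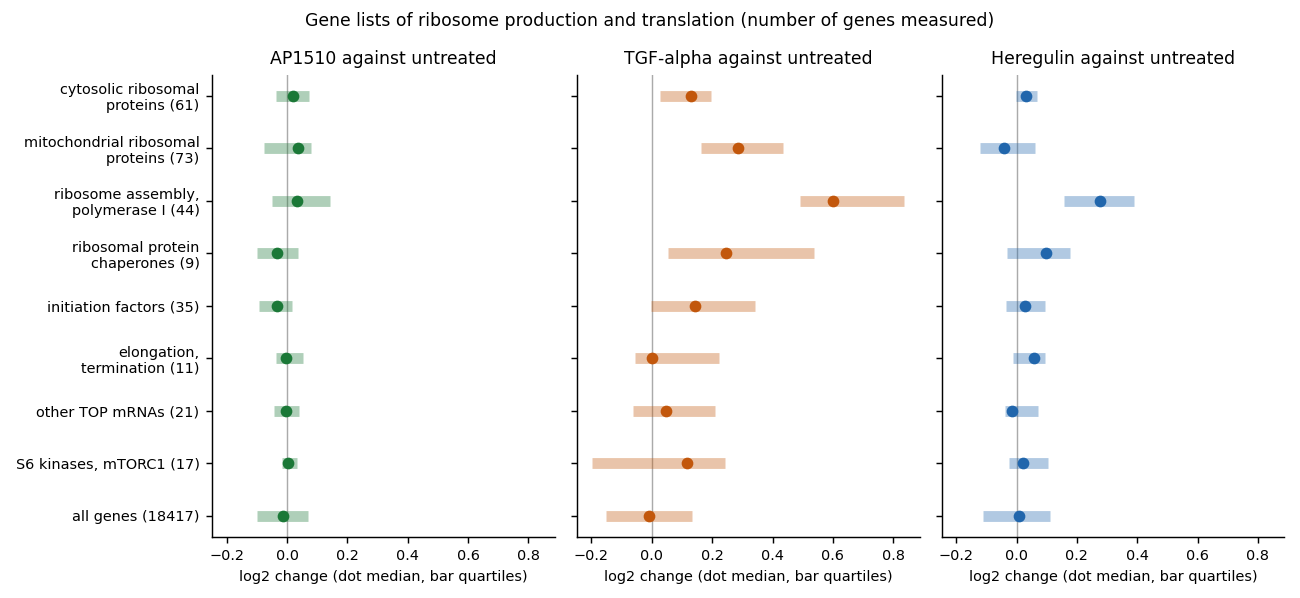
Log2 change against untreated cells by gene list for AP1510, TGF-alpha and heregulin (point, median; bar, lower to upper quartile; the number of genes measured is in brackets). After TGF-alpha the medians are 0.13 for cytosolic ribosomal proteins, 0.29 for mitochondrial ones, 0.60 for assembly factors and -0.01 for all genes.

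Ribosomal protein genes have many near-identical processed pseudogenes, and the probe annotation gives no probe positions, so a probe set can share signal with copies. Repeated probe sets give one view of this. There were 21 members with more than 1 probe set of their own, 54 probe sets in all, and in 17 of them all probe sets changed in the same direction after TGF-alpha. In RPL41, RPLP1, RPS9 and RPS15 they did not. The spread between probe sets of a member had a median of 0.11, and in 9 members their levels lay more than 3 log2 units apart. RPL41 has a dim probe set that changed by -0.09 beside a pair with identical values that changed by 0.29, and its call was lost when probe sets were averaged. RPS3A has 5 probe sets with changes of 0.19 to 0.41, and RPL27A has 3 with changes of 0.07 to 0.41, although neither member passed on its brightest probe set. A dimmer probe set did pass in RPS3A (0.41, limma adjusted p over all probe sets = 0.036) and RPL27A (0.41, 0.025). The same held for RPL14 (0.30, 0.023) and RPL12 (0.22, 0.046), which are also not among the members that passed. The dimmer probe sets of RPL5, RPS7 and RPL41 did not pass. Counts of members thus depend on the choice of probe set. The 3 probe sets of RPL5 changed by 0.10 to 0.25, and averaging them also ended its call. RPS7 has 2, which changed by 0.19 and 0.33.

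**Figure D5:**
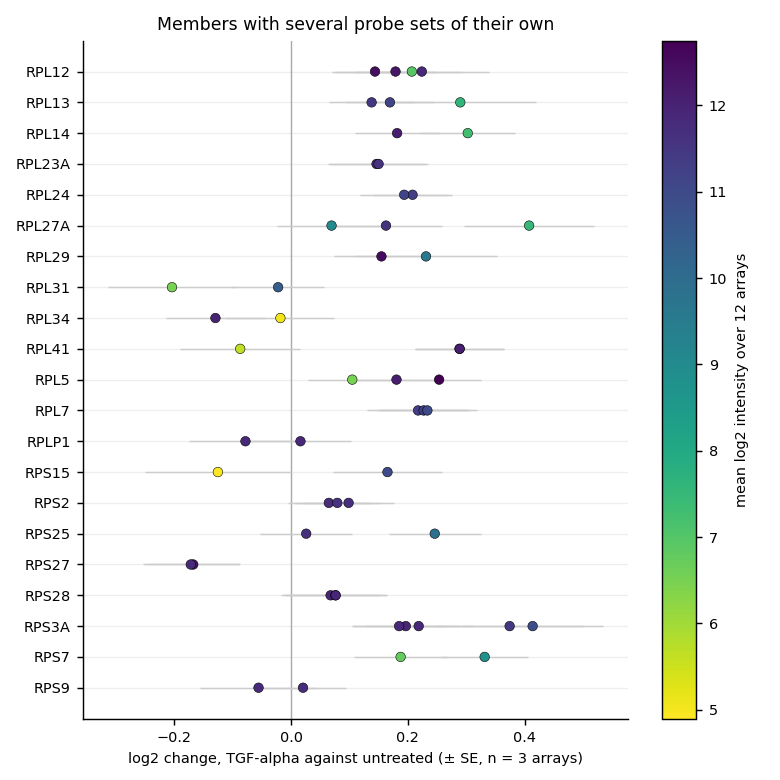
Log2 change after TGF-alpha against untreated cells for every probe set of the 21 members with several of their own (point, with the standard error of the fit, n = 3 arrays a group), coloured by mean log2 intensity. In RPL41 the pair with identical values overlies as 1 point at 0.29, away from the dim probe set at -0.09, while the 3 probe sets of RPL7 fall between 0.22 and 0.23.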

How the data were processed

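The deposited values are log2 probe set intensities that the authors made with RMA, per the submitters' processing notes; neither the RMA version nor the genome build is stated there. Of 33297 probe sets, 19460 named 1 gene, 1754 several and 12083 none, by an array annotation that can be old; 19429 were matched to current symbols by Entrez ID, giving 18417 genes. With limma 3.58.1 in R 4.3.3, a mean per group was fitted over all 12 arrays with no covariate and no filter, and 6 contrasts were tested (two-sided, Benjamini-Hochberg adjustment, threshold 0.05); ± after a change is its standard error. The fit was tested on simulated data with independent noise, for AP1510 against untreated alone. Its power for changes as small as those of the members is not reported here. The number of arrays, 3 a group, limits the precision.

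The members and gene lists were chosen with earlier results of these data known. Named with values are the 3 members with the largest rise and fall that passed in each contrast, the copies beside their relatives, RPLP1, RPLP2, RPL5, RPL11, RPS6, the brightest and dimmest, and up to 3 genes that passed from other lists; others were named after their values were seen. Alternatives were 3 scalings, a filter on dim genes, other choices of probe set, limma's trend, array weights, fits on the groups compared and leaving out each array. Start windows and coordinates are RefSeq's (GRCh38.p14). Protein sequences were not analysed here, and some ribosomal protein genes are not reported here.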

Additional observations from a re-analysis of the deposited data

How the results depend on the processing

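No paired analysis was possible because the labels give the groups no shared replicate numbers. Counts of members that passed moved by over 1.5 times as follows, and no called change of a member turned direction in any setting or refit. After AP1510 the count of 1 was 0 with a second quantile normalization, a common median over all genes, probe sets naming several genes allowed or the arrays of the groups compared alone, and 2 with limma's trend. TGF-alpha against untreated was 20 with the trend, and TGF-alpha against AP1510 was 3 with probe sets naming several genes and 9 with the trend. Heregulin against AP1510 was 3 with quantile normalization, 4 without dim genes, with the trend or with array weights, and 0 with probe sets naming several genes. Heregulin against TGF-alpha was 15 with array weights, and the test over all groups was 15 with the trend. The cause was not tested. Leaving out 1 array gave 0 to 1 after AP1510, 5 to 13 after TGF-alpha, 0 to 0 after heregulin, 1 to 6 for TGF-alpha against AP1510, 1 to 2 for heregulin against AP1510, 5 to 9 for heregulin against TGF-alpha, and 6 to 11 for the test over all groups. The median change after TGF-alpha stayed between 0.10 and 0.15 under all settings and refits, while that against AP1510 was 0.05 with quantile normalization. RPL39L, the dimmest member, is read by a probe set below the median gene, and background was not measured.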

Other observations

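Many ribosomal protein genes host small nucleolar RNAs (snoRNAs) in their introns, RNAs that guide modification of ribosomal RNA, and the array has 47 probe sets that name a member or another ribosomal protein of the same form together with other genes. Of 11 probe sets that name a snoRNA, after TGF-alpha 3 were lower, 1 was higher and 7 had a negative change, whereas of the other 36, 11 were higher, 0 were lower and 33 had a positive change (limma over all 33297 probe sets, where 8.55% were higher and 8.32% lower). These are not counts of separate genes: 4 of the 11 that name a snoRNA name RPL10, and of the 11 others that were higher, 5 name RPS26 and 4 name RPL9. A pair naming SNORA70 and RPL10 fell by 0.43 (adjusted p = 0.0023) and 0.46 (adjusted p = 0.0018), and one naming SNORD68 and RPL13 fell by 0.42 (adjusted p = 0.014). The probe set naming SNORA64 and RPS2 changed by -0.52 without passing (adjusted p = 0.1). The 1 that rose names SNORA33 and RPS12, by 0.42 (adjusted p = 0.017). The annotation does not say which of the named RNAs such a probe set reads, and the difference between the groups of probe sets was not tested. The probe sets naming RPS26, a small subunit protein outside the 61 members, changed by 0.21 to 0.46, and the 4 naming RPL9 by 0.25 to 0.26 (adjusted p = 0.037 to 0.044).

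A pair of promoter motifs was looked for after the values had been seen, on both strands of the 300 bases around each annotated start. CACGTG, the E-box that MYC can bind, was in 3 of 50 members (6%) against 10.9% of the genes tested. CCGGAAG, a core that ETS factors can bind, was in 19 of 50 members (38%) against 16.8%. The motifs cannot overlap each other, but the reverse strand of CCGGAAG holds a pyrimidine run that by itself meets the definition of a TOP tract when it lies at the start. A match is a description of the letters and not a site.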
